A study of Bos indicus with 11 samples.

Results

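SLC30A2 and 8 other zinc handling genes were described in the endometrium of Nelore cows on day 6 after AI. The genes were SLC30A1, SLC30A2, SLC30A4, SLC39A4, SLC39A8, SLC39A14, MTF1, MT1E and MT2A. They were found by exact gene symbol in the deposited table, which gave 10 rows of 24616 genes, because 2 rows carry the symbol MT1E. Of the 10 rows, 9 reached a mean of at least 5 normalized counts over the 11 cows and so were among the 15081 genes tested. Only SLC39A4 did not.

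RNA-Seq was done on 1 biopsy per cow, from the horn opposite the ovary with the corpus luteum. All cows were healthy and multiparous, their estrus had been synchronized, and all of them were inseminated. Groups were set afterwards by the outcome on day 30, as 6 pregnant cows (P) and 5 non-pregnant cows (NP), so that P and NP differ in outcome and not in a treatment. From the inseminated cows, the authors picked those with plasma progesterone in a narrow range at biopsy and with ovulation seen soon after AI. They left out a further NP library that did not align correctly. The NP label does not separate cows that never held an embryo from cows that lost one. A supplement of the study lists cow P617 as non-pregnant, whereas its label says pregnant, and it was kept as P. The supplement also gives 1 sequencing run for both P1541 and P1631, but their values differ in the table, for example 1528 and 376 reads for SLC39A14.

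Zinc enters the cytosol through the SLC39 (ZIP) transporters and leaves it, for the outside or for vesicles, through the SLC30 (ZnT) transporters. Metallothioneins are small cysteine-rich proteins that bind zinc and copper. MTF1 is the transcription factor that senses free zinc and drives metallothionein genes and SLC30A1 when zinc is high. Glandular epithelium of the uterus secretes the fluid in which the early embryo develops, and that fluid contains zinc.

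Cow P617 and, to a lesser degree, cow P1541 stood apart from the other cows. Libraries held between 9290949 and 13569085 reads assigned to genes, and 1 read was worth 0.784 to 1.14 normalized counts. The 8 epithelial markers (EPCAM, CDH1 and keratins among them) summed to between 1977 normalized counts, in P617, and 22317 in P cows, and to between 9359 and 15130 in NP cows, with none at 0 throughout. The 7 smooth muscle markers summed to 82097 to 651970 in P cows and to 40332 to 274403 in NP cows, with P617 and P1541 the highest of all cows. The labelled tissue thus carried epithelial and stromal markers in every cow, with muscle RNA in widely different amounts. Red blood cell markers were near 0, at most 13.1 in sum. In bulk tissue, fewer cells of a type and less RNA per cell cannot be told apart. Differences and correlations that rest on P617 and P1541 are given with and without them.

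The 9 genes were chosen by the normalized counts of NP and P cows, which were known when they were picked, with SLC30A2 selected on its NP over P difference, so the levels that follow are a description with no test. With limma, an adjusted p under 0.1 was reached by 0 of the 9 rows tested, against a background of 0% of all genes tested. Over all genes, 1182 were at an unadjusted p under 0.05 with limma and 1151 with the quasi-likelihood test of edgeR, which also called 0 genes after adjustment. DESeq2 without a prior called 0 of the 9 rows and 1.33% of all genes. The paper lists SLC30A2 among its genes higher in NP at the same threshold. It used an earlier version of DESeq2 and a different number of genes, so the fits differ in more than the version. Its log2 difference for SLC30A2 lies between 0.93 (DESeq2 with a normal prior here) and 2.45 (limma here). The groups did not overlap in 1 of the 9 rows with NP higher, against 0.855% of all genes tested, and in 0 with P higher, against 0.239%. NP had the higher mean on the log2 scale in 7 of the 9 rows. Nothing is read from these counts, since the choice of the genes used the same comparison.

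SLC30A2 (ENSBTAG00000006355), the transporter that loads zinc into secretory vesicles and is known from zinc secretion into milk, was the gene whose groups did not overlap. In P cows it had 0 normalized counts in P617, 0.968 in P1541, 1.01 in P1753, 3.50 in P2396, 7.66 in P904 and 10.3 in P1631. In NP cows it had 10.98 in NP2541, 14.2 in NP238, 14.2 in NP638, 19.4 in NP2810 and 43.0 in NP856. Every NP cow therefore lay above every P cow, with P1631 and NP2541 next to each other at the boundary. This separation rests on P617 being counted as P. As NP, the outcome given by the supplement, P617 would be the lowest NP cow and the groups would overlap. No fit was run with P617 as NP. Cow NP856 was far above the other NP cows, and 3 of the P cows held at most 1 read.

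The SLC30A2 difference rested on few reads. There were 23 reads in all over the 6 P cows and 101 over the 5 NP cows. Counting error alone spans the boundary between the groups: the 9 reads of P1631 have an exact 95% Poisson interval of 4.12 to 17.1 reads, and the 14 reads of NP2541 one of 7.65 to 23.5. For the 0 reads of P617 the upper bound of the same interval is 3.69 reads. Such intervals cover counting error only.

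The mean of SLC30A2 was 3.90 ± 4.18 normalized counts (SD, n = 6) in P and 20.3 ± 13.0 (SD, n = 5) in NP, a ratio of 5.21. On the scale of log2(normalized count + 1), NP over P was 2.45 (SE 0.661, 95% interval 1.01 to 3.90). The gene was chosen on this difference, so that the interval is a description and no test of it. SLC30A2 reached the minimum mean of 5 only through the NP cows. The ratio of means was 3.76 without NP856 and 7.74 without P1631. Against the 4 P cows other than P617 and P1541, whose range was 1.01 to 10.3, the ratio was 3.63, and the log2 difference was 1.80. It was 1.52 with the smooth muscle score (the mean log2 level of the 7 markers) as a covariate and 2.24 with the epithelial score. NP cows had the higher level in each of these fits, at a smaller size where muscle RNA was in the model. Leaving out cows could not change that direction, since the groups do not overlap. The part of tissue makeup in the difference was not tested.

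**Figure D1:**
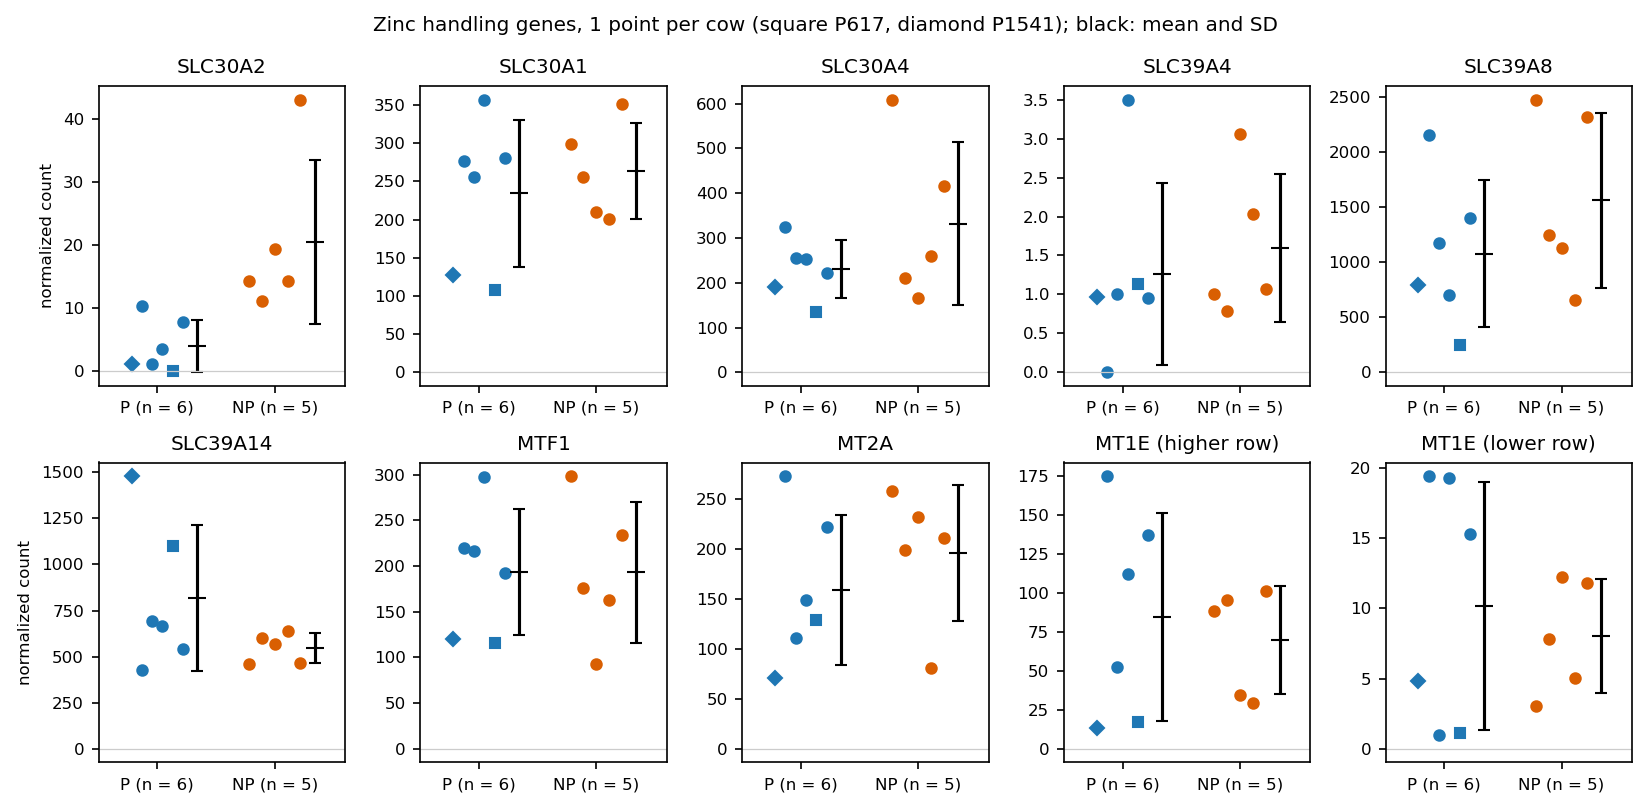
Normalized counts (vertical axis, linear, own scale in each panel) of the 10 rows in 6 P cows (blue) and 5 NP cows (orange), with the mean and SD of each group in black and with P617 as a square and P1541 as a diamond. The groups are apart for SLC30A2 and overlap in the other panels, and P617 and P1541 are the lowest for SLC30A1 and the highest for SLC39A14.

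The other exporters overlapped between the groups. SLC30A1 (ENSBTAG00000010909), which moves zinc out across the plasma membrane, had 107 to 357 normalized counts in P cows, with a median of 266, and 201, 210, 256, 298 and 352 in NP638, NP2810, NP2541, NP238 and NP856. P617 at 107 and P1541 at 128 lay below all 9 other cows, which ran from 201 to 357 without a gap between P and NP. The means were 234 ± 96.9 in P (SD, n = 6) and 263 ± 62.9 in NP (SD, n = 5), and the log2 difference was 0.26 (SE 0.316). Without P617 and P1541 it was -0.17, so that its sign rests on those cows.

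SLC30A4 (ENSBTAG00000021019), which carries zinc into endosomes and other vesicles, had 136 to 325 normalized counts in P cows, with a median of 237. In NP cows it had 165 in NP2810, 211 in NP2541, 260 in NP638, 416 in NP856 and 609 in NP238. The spread was widest in NP, where NP238 and NP856 lay above every P cow and NP2810 lay below all P cows except P617. The means were 230 ± 64.6 (SD, n = 6) and 332 ± 181 (SD, n = 5), with a log2 difference of 0.42 (SE 0.332) and a ratio of means that fell from 1.44 to 1.14 without NP238. The log2 difference was 0.18 without P617 and P1541 and 0.07 with the smooth muscle score as a covariate.

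Among the importers, SLC39A8 (ENSBTAG00000005668), the ZIP8 carrier of zinc, manganese and iron, had 244 to 2157 normalized counts in P cows, with a median of 982. In NP cows it had 652 in NP638, 1126 in NP2810, 1244 in NP2541, 2316 in NP856 and 2475 in NP238. P617 was the lowest of all cows, and NP238 and NP856 were the highest. The means were 1077 ± 664 (SD, n = 6) and 1563 ± 794 (SD, n = 5). The log2 difference was 0.66 (SE 0.518), 0.15 without P617 and P1541, and -0.23 with the smooth muscle score as a covariate.

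SLC39A14 (ENSBTAG00000019225), the ZIP14 carrier of zinc and iron, was the importer with the higher mean in P. It had 1479 normalized counts in P1541, 1098 in P617 and 429 to 695 in the 4 other P cows, against 458 in NP238, 465.7 in NP856, 567.8 in NP2810, 601 in NP2541 and 639 in NP638. The 4 other P cows thus enclosed the NP range, and only P1541 and P617 stood above it. The means were 818 ± 395 (SD, n = 6) and 546 ± 81.1 (SD, n = 5). The log2 difference of -0.46 (SE 0.282) was -0.08 without P617 and P1541 and 0.00 with the smooth muscle score as a covariate.

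SLC39A4 (ENSBTAG00000046026), the ZIP4 importer of the gut that takes up dietary zinc, was close to absent. No cow held more than 4 reads, and each group had 8 reads in all. No fold is given for it at this depth.

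MTF1 (ENSBTAG00000006511) had the same mean in both groups, 194 ± 68.6 normalized counts in P (SD, n = 6) and 193 ± 77.5 in NP (SD, n = 5). Its P cows ran from 115 in P617 to 298 in P2396, with a median of 204. In NP cows it had 92.8 in NP2810, 163 in NP638, 176 in NP2541, 234 in NP856 and 298 in NP238. Each group covered nearly the whole range of the sensor's levels over all cows. The log2 difference was -0.03 (95% interval -0.74 to 0.68), and -0.34 without P617 and P1541.

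The metallothioneins differed several-fold between cows and little between group means. MT2A (ENSBTAG00000023659) had 70.7 to 273 normalized counts in P cows, with a median of 139, and 81.2 in NP638, 199 in NP2541, 211 in NP856, 232 in NP2810 and 258 in NP238. NP638 lay well below the other NP cows, and P1541 below all cows. The means were 159 ± 75.0 (SD, n = 6) and 196 ± 68.1 (SD, n = 5), and the log2 difference was 0.34 (95% interval -0.49 to 1.17). It was 0.04 without P617 and P1541 and -0.30 with the smooth muscle score as a covariate.

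MT1E is named by 2 rows, which may split the reads of near-identical copies, so that both are uncertain. The row with more reads (ENSBTAG00000001595) had 13.6 normalized counts in P1541 and 16.9 in P617 but 175 in P1631, with a P median of 82.2. Its NP values were 29.4 in NP638, 34.7 in NP2810, 88.0 in NP238, 95.7 in NP2541 and 101 in NP856. P cows held both the highest 3 and the lowest 2 of the 11 values, and the CV in P was 79.1%. The means were 84.4 ± 66.8 (SD, n = 6) and 69.8 ± 34.8 (SD, n = 5), so the mean count was higher in P while the log2 difference, 0.11 (SE 0.70), was the other way. Without P617 and P1541 the log2 difference was -0.82, and with the smooth muscle score it was -0.99.

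The second MT1E row (ENSBTAG00000038706) had 1.01 to 19.4 normalized counts in P and 3.03 to 12.2 in NP. Its means were 10.2 ± 8.82 (SD, n = 6) and 8.002 ± 4.06 (SD, n = 5). Its log2 difference was 0.14 (SE 0.732), -0.40 without P617 and P1541 and -0.63 with the smooth muscle score as a covariate. The sign of the difference in both MT1E rows thus changed between fits.

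P617 and P1541 were the lowest 2 of the 11 cows in 3 of the 10 rows (SLC30A1, SLC30A2 and the higher MT1E row) and the highest 2 in 1 row (SLC39A14). Over all genes tested they were the lowest 2 in 14.7% and the highest 2 in 17.6%. The smooth muscle score of these cows was 15.7 in P1541 and 16.1 in P617, against 12.1 to 14.9 in the other cows. In the plot of counts by muscle score these cows, at the high end of the score, were high for SLC39A14 and low for SLC30A1 and MT1E, and P617 was lowest for SLC39A8. The part of muscle RNA in these levels was not tested.

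**Figure D2:**
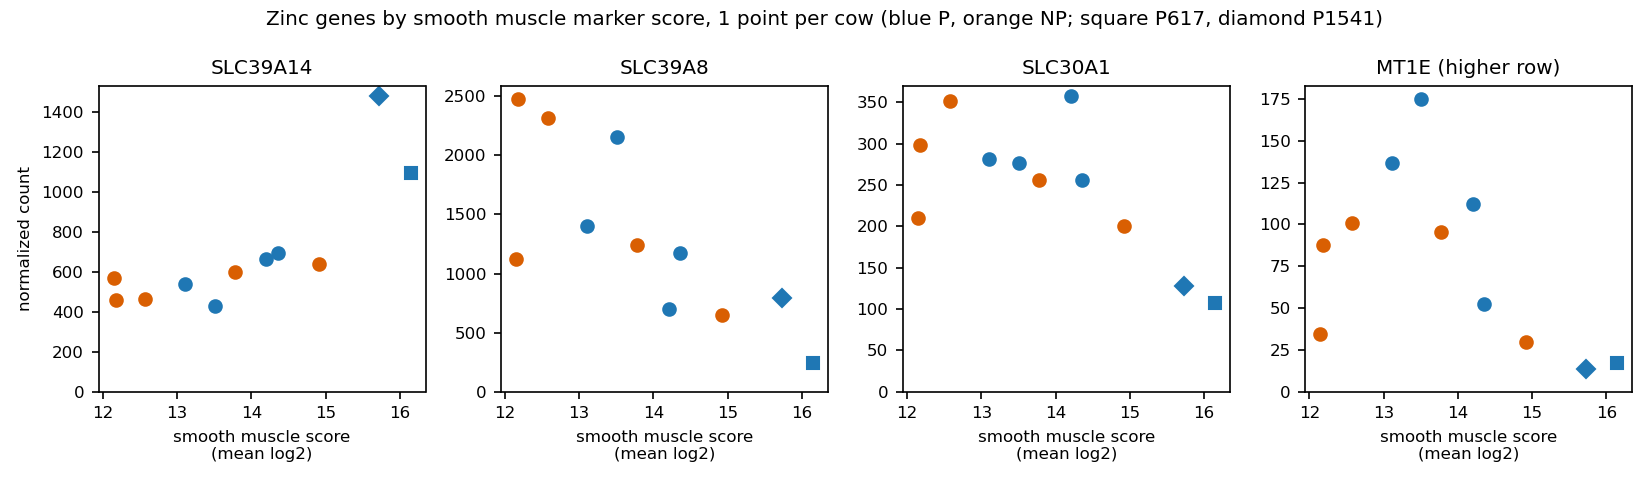
Normalized counts of SLC39A14, SLC39A8, SLC30A1 and the higher MT1E row (vertical axes, linear from 0) against the smooth muscle score (horizontal axes, mean log2 of 7 markers), 1 point per cow, with P in blue, NP in orange, P617 as a square and P1541 as a diamond. P617 and P1541, at the right, have the highest SLC39A14 counts (1098 and 1479) and the lowest SLC30A1 counts (107 and 128).

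Other genes of zinc handling, and genes related to it, were taken from lists. These were exporters, importers, metallothioneins, zinc binding proteins, zinc enzymes, copper and iron genes and known inducers. Of those tested, 13 were copper and iron genes and 11 were inducers, which are not zinc handling genes themselves. Of the 55 tested outside the 9 genes, limma called 0, against 0% of all genes, and DESeq2 without a prior called 0, against 1.33%. An unadjusted p under 0.05 by limma was reached by 7 of the 55 (12.7%) and by 7.84% of all genes tested. NP was higher in 36 of the 55 (65.5%) and in 50.2% of all genes, with median log2 differences of 0.13 and 0.0018. Without P617 and P1541, NP was higher in 25 of the 55 (45.5%) and in 46.3% of all genes, with medians of -0.04 and -0.02. With the smooth muscle score as a covariate, NP was higher in 21 of the 55 (38.2%) and in 47.5% of all genes, with medians of -0.065 and -0.016. The majority with NP higher thus did not remain without those cows.

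Of the 6 other exporters tested, NP was higher in 5, but in only 1, SLC30A3, without P617 and P1541, and none was called by limma or DESeq2. With the smooth muscle score as a covariate, NP was again higher in 1 of the 6. The highest log2 differences were those of SLC30A3, a vesicle loader known from neurons, of SLC30A10, a manganese exporter, and of SLC30A5, a carrier of the early secretory pathway. SLC30A3 had 42.4 ± 20.1 normalized counts in P (SD, n = 6) and 84.4 ± 33.8 in NP (SD, n = 5), with a log2 difference of 1.01 and an adjusted p of 0.522 by limma. SLC30A10 stood at a log2 difference of 0.40 (SE 0.909) and SLC30A5 at 0.20 (SE 0.40). Without P617 and P1541 the log2 difference was 0.65 for SLC30A3, -0.41 for SLC30A10 and -0.32 for SLC30A5.

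The 10 other importers tested were even, with NP higher in 5 and P in 5 (also 5 with NP higher without P617 and P1541), and none was called by limma or DESeq2. SLC39A6, an estrogen-regulated ZIP transporter, had 907 ± 322 normalized counts in P (SD, n = 6) and 624 ± 59.2 in NP (SD, n = 5), with a log2 difference of -0.48 and an adjusted p of 0.607 by limma. The difference was -0.33 without P617 and P1541. SLC39A11 had a log2 difference of 0.46 (SE 0.429), which was -0.16 without P617 and P1541, and SLC39A10 one of 0.42 (SE 0.241), which was 0.20 without them. Among metallothioneins, MT1A was the only other gene tested, with 94.2 ± 64.1 in P (SD, n = 6) and 76.8 ± 51.3 in NP (SD, n = 5). Its log2 difference was -0.38 (SE 0.745), and -1.08 without P617 and P1541. MT4 was at 0 in every cow, and MT3 stayed below the minimum mean.

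NR3C1, the glucocorticoid receptor, through which glucocorticoids are known to induce metallothioneins, was the only gene of the lists outside the 9 whose groups did not overlap. That is 1 of the 55 genes, with NP higher, against 0.855% of all genes tested, so nothing is read from the count. NR3C1 had 99.4 to 144 normalized counts in P cows, with a median of 110, and 144 to 213 in NP cows, with a median of 167. The highest P cow, P904, and the lowest NP cow, NP2810, were nearly level. P617 was at rank 2 of 11 from the lowest, so that counting it as NP would make the groups overlap. The means were 117 ± 20.6 (SD, n = 6) and 172 ± 27.7 (SD, n = 5), with a log2 difference of 0.56 and an adjusted p of 0.40 by limma. It was 0.45 without P617 and P1541 and 0.54 with the smooth muscle score. ALPL, alkaline phosphatase, a zinc enzyme that is singled out after its values were seen, had 1756 ± 1146 in P (SD, n = 6) and 3967 ± 1514 in NP (SD, n = 5). Its log2 difference was 1.55 (SE 0.628), with an adjusted p of 0.564 by limma, and P617 and P1541 were its lowest cows. The difference was 0.66 without them and 0.41 with the smooth muscle score as a covariate. With the epithelial score it was 1.27, with an adjusted p of 0.0937 by limma. That fit called 121 of the 15081 genes tested, against 0 without a covariate.

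**Figure D3:**
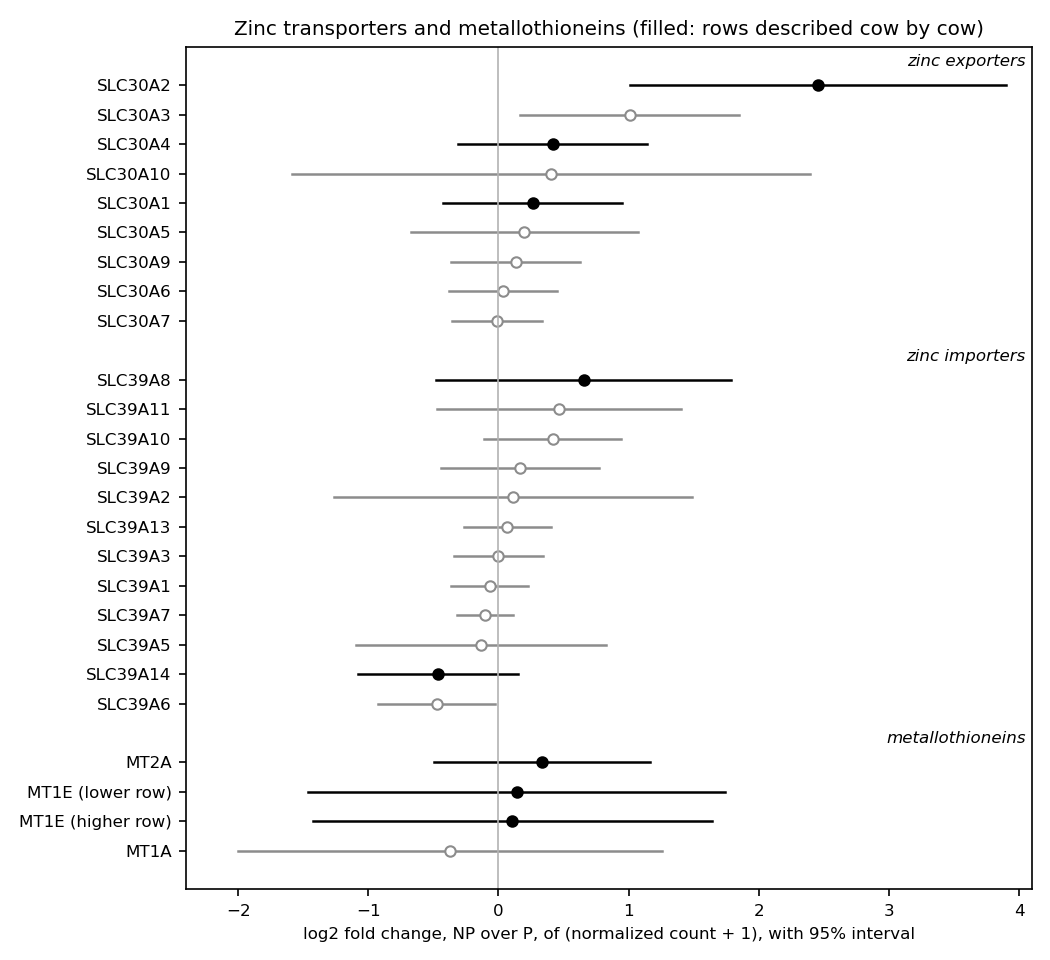
Log2 differences NP over P of normalized count + 1 (horizontal axis), with 95% intervals from limma, for the exporters, importers and metallothioneins tested, with the rows described filled in black and the others open in grey. SLC30A2, which was chosen on this difference, lies farthest from 0, at 2.45, and SLC39A6, at -0.48, is lowest.

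Whether the zinc genes moved together from cow to cow was asked within the groups, with each group's mean taken out, so that the NP and P difference does not enter. For the 5 genes SLC30A1, SLC30A2, MT1E (higher row), MT2A and MTF1 there were 10 pairs, and 7 had an adjusted p under 0.1 by a two-sided exact permutation test over all orders of the cows within each group. The r of these 7 was at least 0.61, a value that 11.2% of all pairs of the 15081 genes tested also reached. That value is the lowest r of the 7, so they reach it by construction. The 10 pairs share 5 genes and are not independent. SLC30A1 and MTF1 had a Pearson r of 0.83 (exact p = 0.00111, adjusted p = 0.0111) and a Spearman rho of 0.78 (exact p = 0.00498, adjusted p = 0.0249) over 11 cows. Cows with more transcripts of the zinc sensor thus had more of the plasma membrane exporter.

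The highest r of the 10 pairs was that of MT1E with SLC30A1. That pair had r = 0.91 (exact p = 0.00278, adjusted p = 0.0139) and rho = 0.87 (exact p = 0.00188, adjusted p = 0.0188). MT1E and MT2A had r = 0.77 (exact p = 0.00708, adjusted p = 0.0236) and rho = 0.75 (exact p = 0.0199, adjusted p = 0.043). MT1E and MTF1 had r = 0.75 (exact p = 0.0111, adjusted p = 0.0278) and rho = 0.66 (exact p = 0.0223, adjusted p = 0.043). MT1E was thus high in the cows in which SLC30A1, MT2A and MTF1 were high, as measured by its higher row. With the lower MT1E row these 3 pairs had r of 0.56, 0.49 and 0.20, and none passed.

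SLC30A2 was part of 3 pairs that passed. It had r = 0.77 with MT1E (exact p = 0.0254, adjusted p = 0.0508; rho 0.84, exact p = 0.0234, adjusted p = 0.043). With SLC30A1 r was 0.73 (exact p = 0.0435, adjusted p = 0.0725; rho 0.75, exact p = 0.0258, adjusted p = 0.043), and with MT2A it was 0.61 (exact p = 0.06, adjusted p = 0.0857; rho 0.69, exact p = 0.041, adjusted p = 0.0586). SLC30A2 held only 0 to 9 reads in P cows, so that its r values carry much counting error. At pseudocounts of 0.5 and 5 its pair with MT2A did not pass (exact permutation test, adjusted p = 0.102 and 0.107). With single cows left out, that pair also did not pass without P1541, P1631, P1753, P2396 or P904. The pair with SLC30A1 did not pass without P617, P1631, P904 or NP856, and that with MT1E without P1631 or P904. With the smooth muscle and epithelial scores regressed out, r was 0.40 with MT1E, 0.21 with SLC30A1 and 0.24 with MT2A. The pairs SLC30A2 with MTF1 (r = 0.42, rho = 0.44), SLC30A1 with MT2A (r = 0.56, rho = 0.50) and MT2A with MTF1 (r = 0.34, rho = 0.37) did not pass, with exact permutation p values of 0.199, 0.10 and 0.322 for r.

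With both P617 and P1541 left out and the group means taken anew, 0 of the 10 pairs had an adjusted p under 0.1 by the exact permutation test over 9 cows. An r of at least 0.61 was then reached by 3 of the 10 pairs and by 7.61% of all pairs of genes. The calls were thus not held without those cows, while Pearson r changed little for SLC30A1 with MTF1 and for MT1E with MT2A. Over the 9 cows rho was 0.82 for SLC30A1 and MTF1, against 0.78 over 11. For MT1E and MT2A rho was 0.58, against 0.75 over 11. The r values there were 0.77 for SLC30A1 and MTF1, 0.74 for MT1E and MT2A, 0.71 for SLC30A1 and MT1E, 0.58 for SLC30A2 and MT2A, 0.57 for SLC30A2 and MT1E, 0.53 for MT1E and MTF1, and 0.35 for SLC30A1 and SLC30A2. For SLC30A2 and MT1E the 2 cows farthest from the median of SLC30A2 were P1631 and P904, and without them r was 0.63, with the group means of all 11 cows kept. For SLC30A2 and MT2A the same cows were farthest, and r without them was 0.34. With the smooth muscle and epithelial scores regressed out, 1 pair of 10 passed, SLC30A1 and MTF1 at r = 0.86 (permutation p = 0.00311, adjusted p = 0.0311). That p is approximate, because what was permuted within groups was the remainder after the scores were regressed out. With the lower MT1E row in place of the higher one, 2 pairs passed.

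**Figure D4:**
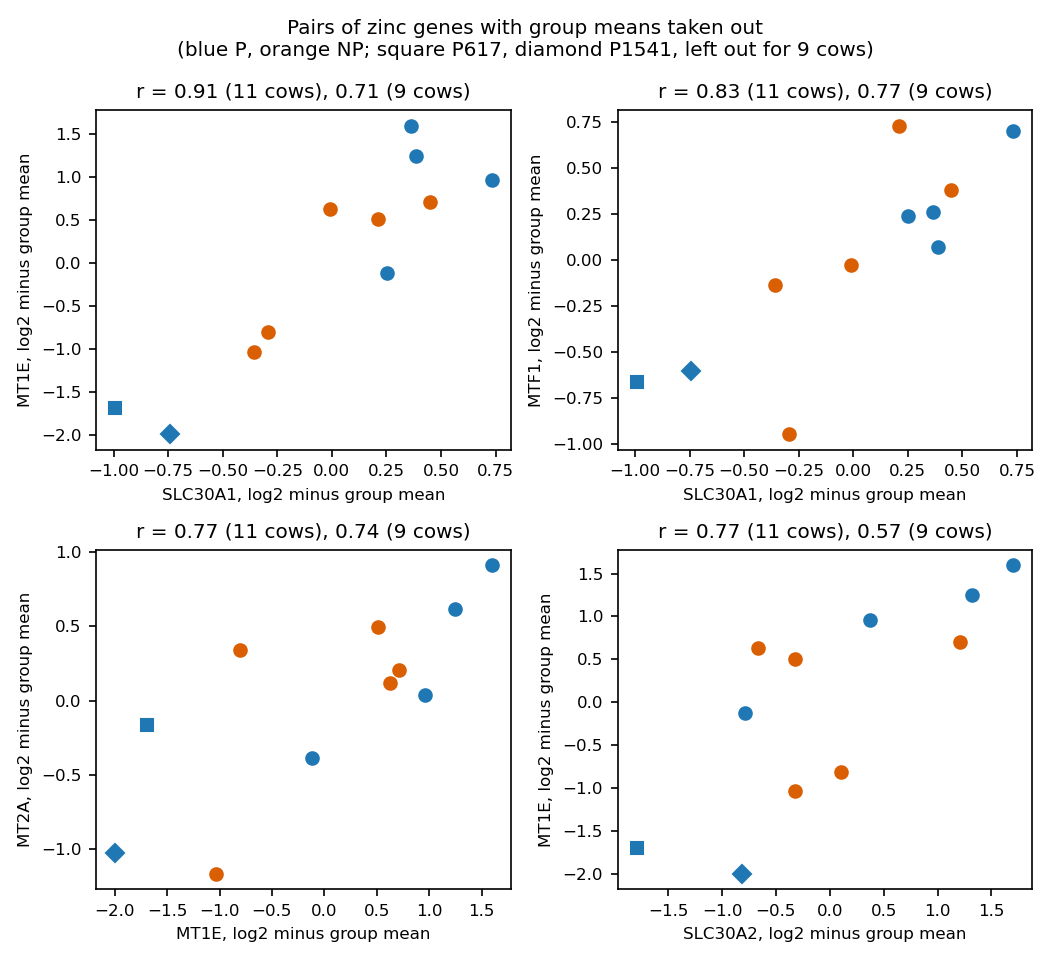
Log2(normalized count + 1) minus the cow's group mean for 4 pairs of genes, 1 point per cow (P blue, NP orange, P617 square, P1541 diamond), with Pearson r over 11 cows and over the 9 cows without P617 and P1541 above each panel. P617 and P1541 lie at or near the low end for SLC30A1 and MT1E, and r for SLC30A1 and MT1E is 0.91 with them and 0.71 without them.

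The genes whose pattern over the 11 cows was most like that of SLC30A2, MT1E and MT2A were ranked by Pearson r with group means taken out, among 12570 genes with a symbol and a mean of at least 20 normalized counts. For SLC30A2 they were an entry with only a UniGene number for a symbol (r = 0.94), CAPG (0.93), TMED4 (0.92), MPZL2 (0.92) and ID2 (0.92). CAPG caps actin filaments, TMED4 belongs to the p24 family of the early secretory pathway, and ID2 inhibits helix-loop-helix transcription factors. For MT1E they included STK36 (0.97), PIGV (0.96), SLAMF9 (0.95) and CSF2RA (0.95). For MT2A they were ORAI2 (0.89), FAM160A1 (0.89), MT1A (0.88), SUMF2 (0.88) and SCO1 (0.87). MT1A is itself a metallothionein, and SCO1 is a copper chaperone of mitochondria. Over the 9 cows without P617 and P1541, r was 0.92 for SLC30A2 with the UniGene entry, 0.94 for MT1E with STK36 and 0.87 for MT2A with ORAI2. The points share a library and its depth, and the highest of so many r values are given as a description with no p.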

How the data were processed

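RNA-Seq was analysed in endometrial biopsies of 11 cows, each 1 replicate. The authors filtered reads with Seqyclean, mapped them with Bowtie2 2.1.0 to masked UMD3.1, counted them with HTSeq 0.5.4p2 and normalized them with DESeq2 1.12.1 (versions from the submitters' processing notes, which also name CASAVA 1.8.2). The authors deposited these normalized counts (a signal at or above 0) in 1 table. Annotation and strand use are not given in the sources used here, so reads of overlapping genes cannot be told apart. In each cow 100% of the deposited values were whole multiples of 1 read (tolerance 0.001 reads), which gave back the read counts. The scale of a fold change depends on the pseudocount, which understates changes of low genes.

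The 9 genes and all lists were chosen with earlier results of these data known. Differences were fitted with limma 3.58.1 (trend) in R 4.3.3 on log2(value + 1) over 15081 genes with a mean of at least 5, with the Benjamini-Hochberg adjustment at 0.1. Alternatives were edgeR 4.0.16 (quasi-likelihood) and DESeq2 1.42.0 on the recovered reads, other normalizations, pseudocounts and filters, marker score covariates and leaving out cows. Exact permutation tests used Python 3.11.15, numpy 2.4.6 and scipy 1.17.1. Scripts were tested on simulated data. Named besides the 9 genes were genes past the limma threshold, genes without overlap between groups, the 3 exporters and 3 importers with the largest absolute log2 difference, and the 5 genes most like SLC30A2, MT1E and MT2A, of which 1 is not reported here. Joined symbols were matched by each of their parts. SLC30A8 and CEBPD matched 0 rows. Gene positions and sequences are not used here.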

Additional observations from a re-analysis of the deposited data

Results flagged for a closer look

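Dixon's test for a sample far from the others was run on log2(normalized count + 1) in the 20 sets of P or NP values. Chance marks about 1 in 20 groups, and the test marked 1 of the sets of the 10 rows. In MT2A, NP638 was the lowest of the 5 NP cows, at 81.2 normalized counts. On the log2 scale the gap to the next cow was 0.776 of the NP range, above the critical value of 0.71. The mark holds for that scale and is not given for the counts themselves. NP638 also had the highest smooth muscle score of the NP cows, 14.9 against 12.1 to 13.8, and its part in the low MT2A level was not tested.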

How the results depend on the processing

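The number of genes called over all genes was 0 with limma, 188 with DESeq2 and a normal prior, 201 with DESeq2 without a prior, 121 with the epithelial score as a covariate and 17 without P617 and P1541. Leaving out each cow in turn gave 0 to 171, the highest without P904. Of the 55 listed genes outside the 9, 1 was called with the epithelial score (ALPL) and 0 in the leave-one-out fits. The same epithelial fit called 121 of the 15081 genes tested. Of the 10 pairs, 7 passed, against 0 without P617 and P1541, 1 with marker scores regressed out and 2 with the lower MT1E row, an alternative added after seeing the data. Leaving out each cow gave 4 to 8 pairs, with 4 without P1631 and 4 without P904. The correlation of SLC30A2 and MTF1 was -0.0082 without P617 and P1541. The cause of these changes was not tested. The log2 difference of SLC30A2 ran from 0.93 (DESeq2 with a normal prior) to 2.79 (without P1631) under the 24 alternatives that kept it. It was 1.88 without P617, P1541 and NP638 (added after seeing the data), and 1.51 at a pseudocount of 5. The gene was chosen on this difference and its groups do not overlap. Its sign was thus fixed in advance where cows were left out or the pseudocount or filter changed, and is no support. The difference rests on 23 reads in P, and a minimum mean of 20 drops it. No paired analysis was possible because the labels give cow numbers, which are not shared between the groups.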
